A study of Mus musculus with 13 samples.

Results

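The cluster of duplicated zinc finger genes on distal mouse chromosome 4, which holds Zfp978 and Zfp993, was taken as every listed 5-hydroxymethylcytosine (5hmC) region that starts between 145 and 148.5 Mb on chromosome 4 (mm10). It was chosen because earlier results from these data had shown many changed regions there, so its counts and directions are given as a description. The interval is 3.5 Mb long. It held 192 of 43378 regions in the first deposited table (WT DMM against WT sham), 296 of 65969 in the second (MUT DMM against WT DMM) and 192 of 72486 in the last (MUT DMM against WT sham). At the ends of the interval, levels inside and outside were as follows. In WT DMM against WT sham, the first region inside had means of 7.97 normalized counts in WT DMM and 3.14 in WT sham, and the nearest one before it had 7.18 in WT DMM and 2.05 in WT sham. The last region inside had 22.5 in WT DMM and 42.9 in WT sham, and the nearest one after it had 5 in WT DMM and 2.08 in WT sham.

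The samples were knee cartilage DNA of male B6;129S4 mice, 6 weeks after surgery. MUT mice, labelled TET-/- in a study of the dioxygenase TET1, had destabilisation of the medial meniscus (DMM), a knee operation that leads to osteoarthritis. The protocol states that the medial meniscus itself was taken out. WT mice (TET1+/+) had either DMM or sham surgery, in which the joint was opened only. Each of these 3 groups has 3 samples by the labels. The treatment protocol puts each control on the opposite leg, while the design text speaks of age-matched sham controls, and the mice were 4 to 6 months old by the protocol but 3 to 4 months by the design text. MUT sham samples and the control for background are not used here, so the effect of the mutation without DMM and the level without 5hmC labelling are not given. The tissue is a mix of cells, and a change in its cell types cannot be told apart from a change of 5hmC within a cell.

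TET enzymes oxidise 5-methylcytosine to 5hmC, which can stay on DNA as a mark or lead on to loss of methylation. In the assay (reduced representation hydroxymethylation profiling), DNA is cut at CCGG by MspI, 5hmC at the cut ends is given a glucose that blocks a repeated MspI digest, and only fragments with 5hmC at their ends survive to be sequenced. Genes of the interval's main family encode KRAB zinc finger proteins, which bind DNA through arrays of zinc fingers and recruit the corepressor TRIM28 (KAP1), largely at retrotransposons. Such genes arose by repeated duplication, so copies within a cluster can share long stretches of sequence. RefSeq lists 111 genes that touch the interval, of which 18 are zinc finger genes, 61 are gene models without a functional name and 32 are other named genes. By type, 41 of the 111 are protein coding and 59 are pseudogenes. The zinc finger genes run from chr4:145510759 to 147849126, and Zfp978 (267 kb) and Zfp993 (479 kb) have spans that contain or overlap several other genes.

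The zinc finger genes' promoters ranged from nearly alike, in 3 genes, through partly alike to far apart. RefSeq's table (build GRCm38.p6, 250 bases before to 50 after each start) holds 58 promoters of 40 genes in the interval, 16 of them from 13 zinc finger genes. The 3 most alike belong to Zfp600 (chr4:146156577-146156876, + strand), Rex2 (chr4:147021600-147021899, + strand) and Zfp979 (chr4:147642459-147642758, - strand). They are shown for their likeness to each other, and the sequences of the listed regions themselves were not compared. Letters in capitals differ from the Zfp600 sequence in the alignment.
Zfp600: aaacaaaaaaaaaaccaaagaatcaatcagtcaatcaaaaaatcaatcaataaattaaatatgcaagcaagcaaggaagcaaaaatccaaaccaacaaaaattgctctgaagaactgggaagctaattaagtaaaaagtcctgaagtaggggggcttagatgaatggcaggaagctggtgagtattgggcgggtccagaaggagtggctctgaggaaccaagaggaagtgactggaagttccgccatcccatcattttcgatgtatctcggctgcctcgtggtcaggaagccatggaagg
Rex2: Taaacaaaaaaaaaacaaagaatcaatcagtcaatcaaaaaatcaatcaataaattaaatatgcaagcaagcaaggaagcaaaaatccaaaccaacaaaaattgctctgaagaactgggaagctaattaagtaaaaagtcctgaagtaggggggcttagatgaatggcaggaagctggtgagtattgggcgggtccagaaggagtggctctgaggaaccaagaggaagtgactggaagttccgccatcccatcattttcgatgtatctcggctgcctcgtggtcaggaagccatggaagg
Zfp979: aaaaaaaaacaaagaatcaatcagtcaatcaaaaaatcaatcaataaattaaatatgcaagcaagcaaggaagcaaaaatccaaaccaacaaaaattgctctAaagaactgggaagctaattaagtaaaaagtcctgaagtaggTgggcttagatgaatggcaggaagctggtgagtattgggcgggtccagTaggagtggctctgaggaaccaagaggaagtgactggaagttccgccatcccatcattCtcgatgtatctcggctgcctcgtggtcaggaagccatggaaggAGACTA
Rex2 differed from Zfp600 by 2 edits over 300 bases, 1 inserted and 1 missing base. Zfp979 differed from Zfp600 by 16 edits, of which 4 were substitutions (G109A, G151T, A199T and T257C, counted from the 5′ end of the Zfp600 sequence, with its base first) and the rest were bases inserted or missing. Over the 116 pairs of promoters of different zinc finger genes, the median was 158 edits, and only the 3 pairs among these promoters were within 30. Other pairs came close to that limit, such as Zfp980 and Zfp979 (31 edits), Zfp988 and Zfp534 (32), and Zfp987 and Zfp982 (33). The furthest pair, of Zfp993 and Zfp982, differed by 184. Genes with several promoters enter with each of them, so the median does not describe the likeness of the genes.

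None of those 3 promoters holds a CCGG, the site the assay reads. The motif CCGG, which is its own reverse complement and was therefore counted on both strands at once, occurs in 53.4% of the interval's promoters (31 of 58), 18.8% of those of its zinc finger genes (3 of 16) and 52.8% of all 32851 promoters in the table. The 2 shown next hold a CCGG, in capitals, and carry listed regions. They belong to Gm13165, a long non-coding RNA model (chr4:146239954-146240253, - strand), and Zfp982 (chr4:147442864-147443163, + strand).
Gm13165: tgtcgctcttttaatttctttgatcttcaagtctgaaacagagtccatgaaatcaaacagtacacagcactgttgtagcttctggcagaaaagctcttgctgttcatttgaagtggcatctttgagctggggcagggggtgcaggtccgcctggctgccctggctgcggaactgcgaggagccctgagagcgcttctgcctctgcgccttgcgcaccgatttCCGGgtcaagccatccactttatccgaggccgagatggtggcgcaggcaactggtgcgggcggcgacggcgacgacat
Zfp982: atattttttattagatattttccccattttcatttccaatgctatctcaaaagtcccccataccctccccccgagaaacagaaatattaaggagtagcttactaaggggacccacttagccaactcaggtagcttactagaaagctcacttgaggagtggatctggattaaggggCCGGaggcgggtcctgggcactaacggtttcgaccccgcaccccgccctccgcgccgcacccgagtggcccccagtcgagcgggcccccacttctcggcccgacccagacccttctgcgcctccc

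The deposited levels are normalized counts, and each library's levels are whole multiples of the value of 1 read, so reads could be recovered. The 3 MUT DMM entries of a cell hold only 2 distinct libraries, since 2 of them are equal in every region. They are called the deeper and the shallower MUT DMM library, and MUT means here are over n = 2. The authors' adjusted p-values in both MUT DMM comparisons may count the repeated library as a replicate of its own. Which entries their test used is not stated in the labels or file headers. The WT DMM library listed first was nearly empty. In WT DMM against WT sham it had 15 reads in the interval, was at 0 in 94.3% of the interval's regions, and its 1 read is worth 15.7 normalized counts, so every level it can show there is 0 or at least 15.7. It was at 0 in 68.2% of them in MUT DMM against WT DMM. The other libraries had 1411 to 43401 reads in the interval, and the interval took 0.317% to 0.841% of a library's reads in the listed regions. Levels belong to 1 table, since each table was scaled on its own. Each table lists only regions with a window p of at most 0.0001, so the counts of changed regions say little by themselves.

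**Figure D1:**
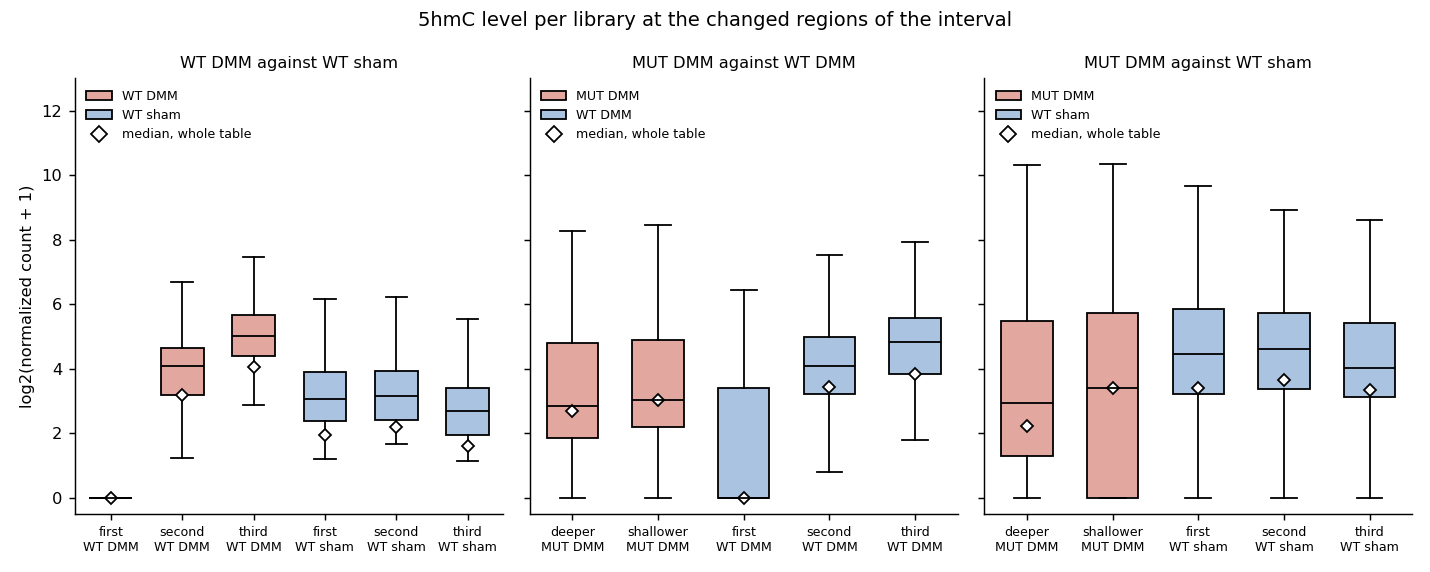
Level of 5hmC, as log2(normalized count + 1), at the changed regions of the interval in each distinct library of the 3 tables. Boxes give the quartiles and median, whiskers reach the most extreme value within 1.5 box lengths, and diamonds mark the median over all changed regions of the table. The first-listed WT DMM library sits at 0 in WT DMM against WT sham, while the other WT DMM medians (16 and 31.2 normalized counts) lie above those of the WT sham libraries (7.37, 7.87 and 5.47).

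In WT mice with DMM, regions of the cluster were mostly listed with higher 5hmC than after sham surgery, in a share near that of the whole table. Of the 192 regions, 191 had an authors' adjusted p under 0.05 (99.7% over the whole table), and 182 were higher and 9 lower (94.8% and 4.69% of the interval, against 93.2% and 6.53% of the table). Once the third-listed WT DMM library was left out, 100 of the changed regions were higher and 91 lower (52.4% higher, against 64.7% over the table), and the median log2 ratio of the group means (pseudocount 1) was 0.05, against 0.26 over the table. The median of the group means was 15.5 normalized counts in WT DMM and 7.05 in WT sham, while over all changed regions listed it was 7.78 in WT DMM and 2.85 in WT sham. With all libraries the median log2 ratio was 1.05 in the interval and 1.13 in the table. It depended on the scaling. With recovered reads scaled to each library's total over the listed regions (RPM) in place of the deposited normalization, it was 0.25 in the interval and 0.40 in the table, and 150 regions were higher and 41 lower (78.5% higher, against 89.2% over the table). In deposited levels the cluster's regions were more strongly covered than most, and 139 of the 191 changed ones fell above the table's upper quartile of WT sham level (4.22 normalized counts). Above it 93.5% were higher in the interval (130 of 139), against 73.8% over the table.

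The WT libraries overlapped almost everywhere. In 3 of the 191 changed regions (1.57%), all 3 WT DMM levels lay above all 3 WT sham levels. Over the table the groups were apart in 2.71% of changed regions, and in 1.07% of the higher ones. Without the nearly empty WT DMM library, the groups did not overlap in 163 regions, all of them higher, where 81.7% of the table's changed regions and 85.3% of its higher ones did not. In limma on log2(normalized count + 1) with Benjamini-Hochberg adjustment over all listed regions, no region of the interval was called, against 0% of the table, and none had an unadjusted p under 0.05, against 0.772% of the table. Without the nearly empty library it called 137, all higher (71.4% of the interval, against 74.3% of the table). The median limma coefficient was 0.09 with all libraries and 1.49 without that one. All regions were listed for a difference between these same libraries, so limma is no independent check in any of the comparisons.

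The most strongly called higher region lay in Zfp600 (chr4:146187021-146187360), a KRAB zinc finger gene. It had 15.7, 32.0 and 32.3 normalized counts in WT DMM libraries, against 13.5, 13.6 and 10.8 in WT sham libraries (authors' deposited table, adjusted p = 0.000222). All WT DMM levels were above all WT sham levels, though the lowest of them is a single read. The next by adjusted p (0.000264 in the authors' deposited table, ties in order of position) was chr4:145464421-145464660 in Smarca5-ps, a pseudogene named after a chromatin remodeller gene. It had 0, 16.0 and 21.9 in WT DMM, against 4.48, 2.86 and 3.59 in WT sham. With the same adjusted p, chr4:145493741-145494120, outside genes, had 0, 13.3 and 41.7 in WT DMM and 9.61, 7.15 and 4.78 in WT sham. There the direction rested on 1 library, and the log2 ratio of 1.24 became -0.09 when the third-listed WT DMM library was left out. The region with the most reads, chr4:145781901-145782820, had 47.0, 171 and 347 in WT DMM, against 142, 138 and 119 in WT sham, and its log2 ratio of 0.50 became -0.29 without it as well.

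The 9 lower regions were of 2 kinds. In 3 of them the first-listed WT sham library alone was high. At chr4:147744441-147744720, outside genes, levels were 0, 2.67 and 6.25 in WT DMM, against 81.4, 2.15 and 5.47 in WT sham. The log2 ratio of -2.95 there was -0.28 without that sham library. The regions chr4:147269201-147269400 in Zfp978 (0, 5.34 and 6.25 in WT DMM, against 85.2, 2.15 and 3.93 in WT sham) and chr4:146462361-146462680 in Zfp992 (0, 13.3 and 22.9 in WT DMM, against 155, 12.9 and 8.20 in WT sham) looked alike in this. In the other 6, the WT sham libraries were close to each other and the nearly empty WT DMM library was at 0. An example is chr4:147049101-147049380 in Rex2, with 0, 70.7 and 79.1 in WT DMM and 78.2, 83.7 and 81.5 in WT sham (authors' deposited table, adjusted p = 0.00196). Its log2 ratio was -0.69, and -0.11 without the nearly empty library. A second one in Zfp993, chr4:146727181-146727400, had 0, 80.04 and 66.6 in WT DMM, against 82.0, 81.6 and 79.8 in WT sham. Without the nearly empty library, the groups overlapped in all 9.

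MUT DMM against WT DMM gave the interval's largest number of regions, and most of them were lower. Of 296 regions, 292 had an authors' adjusted p under 0.05 (98.9% over the table), and 87 were higher and 205 lower, against 34.2% higher and 64.7% lower over the table. The median of the group means was 7.6 normalized counts in MUT DMM, against 15.8 in WT DMM. Over the table's changed regions it was 5.89 in MUT DMM, against 10.1 in WT DMM. The median log2 ratio was -0.87 in the interval and -0.63 in the table. The interval stood most apart among regions of middle level. Where the WT DMM mean lay between 10.1 and 19.1, the median and the upper quartile of the table, 19.2% of changed regions were higher in the interval (15 of 78), against 53.9% over the table. Above the upper quartile the shares were 46.3% in the interval and 51.1% in the table.

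Library levels did not overlap between the groups in 90 of the 292 changed regions (30.8%, against 41.9% of the table's). They comprised 53 of 87 higher and 37 of 205 lower regions, where the table's shares were 67% and 28.6%. Without the nearly empty WT DMM library they did not overlap in 233, where the table's share was 77.8%, and these were 55 higher and 178 lower, where the table's shares were 70.5% and 81.7%. Leaving out the third-listed WT DMM library gave 143 higher and 149 lower regions (49% higher, against 53.5% over the table) and a median log2 ratio of -0.01, against 0.12 over the table. In limma with Benjamini-Hochberg adjustment, no region of the interval was called with or without the nearly empty library, against 0% of the table both ways. At an unadjusted p under 0.05 there were 15 regions, all lower (5.07% of the interval, against 7.49% of the table). Without that library there were 132, of which 7 were higher and 125 lower (44.6% of the interval, against 34.6% of the table). The smallest adjusted p in the interval was 0.598. The median limma coefficient was -0.07, and -1.33 without the nearly empty library.

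The 3 lower regions with the smallest adjusted p lay in gene bodies. In chr4:146202261-146202680, within Gm13165 and the vomeronasal receptor pseudogene Vmn2r-ps17, levels were 8.66 in the deeper and 7.11 in the shallower MUT DMM library, against 19.1, 24.1 and 33.5 in WT DMM libraries (authors' deposited table, adjusted p = 2.02e-07). In Zfp600, chr4:146186861-146187260 had 12.9 and 14.2 in MUT DMM, against 19.1, 36.1 and 32.3 in WT DMM (authors' deposited table, adjusted p = 2.38e-07). This overlaps the region that led the higher ones in WT DMM against WT sham. In Zfp993, chr4:146816581-146817060 had 5.62 and 0 in MUT DMM, against 19.1, 15.0 and 24.4 in WT DMM. In all 3 the groups were apart, with the first-listed WT DMM level resting on 2 reads.

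The leading higher regions had higher levels. In Zfp993, chr4:146941681-146942260 had 76.7 and 71.1 normalized counts in MUT DMM, against 38.2, 40.6 and 33.5 in WT DMM (authors' deposited table, adjusted p = 6.22e-05). In Zfp981, chr4:146504241-146504640 had 91.7 and 103 in MUT DMM, against 38.2, 65.4 and 42.0 in WT DMM, and chr4:147219961-147220360 in Zfp978 had 90.3 and 103 in MUT DMM, against 38.2, 68.5 and 40.8 in WT DMM. The groups were apart in each. The region with the most reads, chr4:145745381-145745980 in Vmn2r-ps15, had 376 and 498 in MUT DMM, against 143, 366 and 216 in WT DMM. It was not called by the authors (adjusted p = 1 in their deposited table). Next in reads were chr4:146475541-146476020 in Vmn2r-ps16, with 291 and 306 in MUT DMM and 57.4, 232 and 299 in WT DMM, and chr4:146239841-146240220 at the Gm13165 promoter printed above, with 309 and 352 in MUT DMM and 38.2, 302 and 165 in WT DMM.

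Against WT sham, MUT DMM was again mostly lower, and there the libraries were usually apart. Of 192 regions, 191 had an authors' adjusted p under 0.05 (99.3% over the table), with 62 higher and 129 lower. Lower regions made 67.2% of the interval, against 56.1% of the table, and higher ones 32.3%, against 43.2% of the table. The median of the group means was 8.1 normalized counts in MUT DMM, against 20.1 in WT sham, and over the table's changed regions 7.67 in MUT DMM, against 10.9 in WT sham. The median log2 ratio was -1.38 in the interval and -0.98 in the table. Above the upper quartile of WT sham level (35), 47.8% of changed regions were higher in the interval, against 65.2% in the table. Levels did not overlap in 156 of the 191 changed regions (81.7%, against 82.1% in the table). They comprised 47 of 62 higher and 109 of 129 lower regions, where the table's shares were 75.2% and 87.5%.

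In limma with Benjamini-Hochberg adjustment, 75 regions of the interval passed an adjusted p of 0.05, 6 higher and 69 lower (39.1%, against 45.4% of the table). When libraries were left out in turn, the count was lowest at 39 without the second-listed WT sham library (20.3%, against 27.1% of the table) and highest at 116 when the deeper library of MUT DMM was dropped (60.4%, where the table had 67.6%). It was 47 without the first-listed WT sham library (24.5%, against 31.6%) and 45 without the third-listed one (23.4%, against 27.7%). With regions whose higher group mean was under 10 normalized counts left out, it was 0 in the interval and 0% of the table, and 59 of 147 regions had an unadjusted p under 0.05 (40.1%, against 33.5% of the table). Among the 129 lower regions, both MUT DMM libraries were at 0 in 28. Here 3 reads, the limit that a count of 0 allows, equal 2.21 normalized counts in the deeper and 28.3 in the shallower MUT DMM library, for counting error only. A 0 in the shallower library thus allows levels as high as those of many WT sham regions.

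The lower region with the smallest adjusted p lay in Fbxo6, whose product recognises glycoproteins for a ubiquitin ligase. At chr4:148149461-148149700 levels were 108 and 75.6 in MUT DMM, against 135, 129 and 128 in WT sham (authors' deposited table, adjusted p = 2e-06). In Fv1, a restriction factor against murine leukaemia viruses, chr4:147869501-147869740 had 0.74 and 0 in MUT DMM, against 11.1, 13.9 and 11.9 in WT sham. The region chr4:147065801-147066080 in 4933438K21Rik had 0 reads in both MUT DMM libraries, against 16, 8 and 34 reads in the WT sham libraries. These 3 regions showed no overlap between the groups. Of the higher ones, chr4:146135921-146136300 in Vmn2r-ps17 had 169 and 198 in MUT DMM, against 104, 77.6 and 102 in WT sham (authors' deposited table, adjusted p = 2.46e-05). In Mfn2, which encodes the mitochondrial fusion protein mitofusin 2, chr4:147874921-147875200 had 54.5 and 56.7 in MUT DMM and 31.3, 28.9 and 27.2 in WT sham. Here too the groups were apart.

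The deepest regions of the interval were in this table and were all higher. The first, chr4:146239421-146239720 in Gm13165, had 1261 and 1313 normalized counts in MUT DMM, against 766, 893 and 1133 in WT sham (log2 ratio 0.47). Its neighbour chr4:146239821-146240180, over the printed Gm13165 promoter, had 1222 and 1181 in MUT DMM, against 814, 918 and 1014 in WT sham. In Vmn2r-ps15, chr4:145745161-145745540 had 1156 and 1096 in MUT DMM and 722, 822 and 1034 in WT sham. The 3 log2 ratios were between 0.28 and 0.63 when libraries were left out in turn. They rest on 7485 to 8153 reads each while the median log2 ratio over the interval's 62 higher regions was 0.90.

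**Figure D2:**
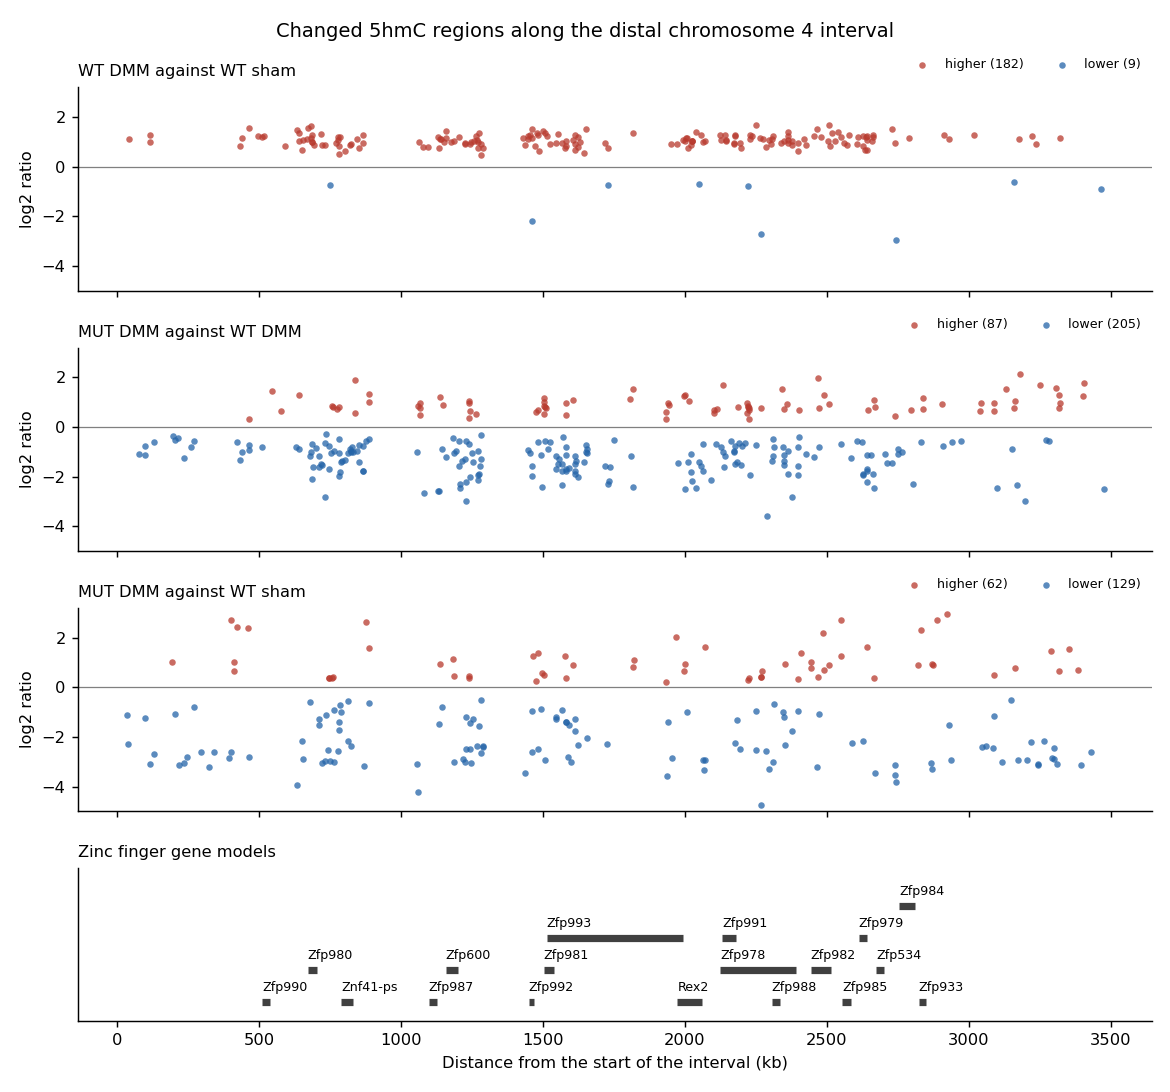
Log2 ratio of the group means (pseudocount 1) of every changed region against its distance from the start of the interval in kb, for the 3 tables, with the spans of the zinc finger gene models below. Points above 0 are higher and points below 0 lower in the group named first. The higher points of WT DMM against WT sham (182) run the length of the cluster, and the lower ones of both MUT DMM comparisons (205 against WT DMM, 129 against WT sham) also run along it.

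Zfp978 and Zfp993 held the most changed regions of the zinc finger genes in each table. Zfp978 held 29 higher and 2 lower regions in WT DMM against WT sham, 13 higher and 28 lower in MUT DMM against WT DMM, and 6 higher and 14 lower in MUT DMM against WT sham. Zfp993 held 22 higher and 1 lower, 9 higher and 34 lower, and 7 higher and 16 lower in the same order. The 3 comparisons share libraries in pairs, so a region's directions in them are not independent of each other. Rex2 held 11 higher and 1 lower in WT DMM against WT sham, 3 higher and 9 lower in MUT DMM against WT DMM, and 2 higher and 1 lower in MUT DMM against WT sham. A region in overlapping genes counts for each of them, as did 39 of 191, 86 of 292 and 48 of 191 changed regions in the 3 comparisons in that order. How the authors' counting treated stretches that are near-identical between copies is not stated, and its effect on these counts was not tested.

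Several smaller zinc finger genes were listed as higher in WT DMM against WT sham and lower in MUT DMM against WT DMM. Zfp979 had 7 higher regions in WT DMM against WT sham and 7 lower in MUT DMM against WT DMM. Zfp980 had 7 higher in the first and 6 lower in the second of these. Zfp600 had 4 higher and 4 lower in the same way. Zfp991 had 7 higher in WT DMM against WT sham, and 1 higher and 8 lower in MUT DMM against WT DMM. Znf41-ps, a zinc finger pseudogene, had 8 lower regions in MUT DMM against WT DMM and 3 lower in MUT DMM against WT sham, and Zfp988 had 4 lower and 2 lower in these. Other genes went differently. Zfp981 had 6 higher and 3 lower regions in MUT DMM against WT DMM, and Zfp982 had 4 higher and 2 lower there and 6 higher and 2 lower in MUT DMM against WT sham. Zfp992 had 3 higher and 1 lower in WT DMM against WT sham. Zfp987 and Zfp534 held no changed region in any table. By the numbers of genes, 15 of the 18 zinc finger genes held a changed region in WT DMM against WT sham, 15 in MUT DMM against WT DMM and 13 in MUT DMM against WT sham. In the same order, the 32 other named genes gave 11, 20 and 18, and the 61 models without a functional name 12, 25 and 18. The share over all genes of the genome was not computed. These counts make no allowance for gene length, so they do not set the zinc finger genes apart.

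Pseudogenes between and within these genes were listed as well. Those of vomeronasal receptors, remnants of pheromone receptor genes, held many regions. Their listed spans are long, with 74.2 kb for Vmn2r-ps15, 160 kb for Vmn2r-ps16 and 140 kb for Vmn2r-ps17. They overlap zinc finger genes, among them Zfp600, Zfp981 and Zfp992, so they are not a separate set of regions from those counted above. Vmn2r-ps16 had 19 higher and 1 lower in WT DMM against WT sham, 11 higher and 23 lower in MUT DMM against WT DMM, and 8 higher and 13 lower in MUT DMM against WT sham. Vmn2r-ps17 had 15 higher in WT DMM against WT sham, and in MUT DMM 7 higher and 20 lower against WT DMM, and 5 higher and 11 lower against WT sham. Vmn2r-ps15 had 4 higher and 1 lower, 3 higher and 11 lower, and 4 higher and 9 lower in that order. LOC115486238, a pseudogene within the Zfp993 span, had 8 higher in WT DMM against WT sham, 11 lower in MUT DMM against WT DMM and 4 lower in MUT DMM against WT sham. Gm13165 had 12 lower and 2 higher in MUT DMM against WT DMM, where Gm13169 had 2 of each and Gm13233 had 4 lower and 2 higher. At the edges, Vps13d, which encodes a lipid transfer protein, had 5 lower and 1 higher in MUT DMM against WT sham, and Disp3, of the Dispatched family, had 3 lower and 1 higher.

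**Figure D3:**
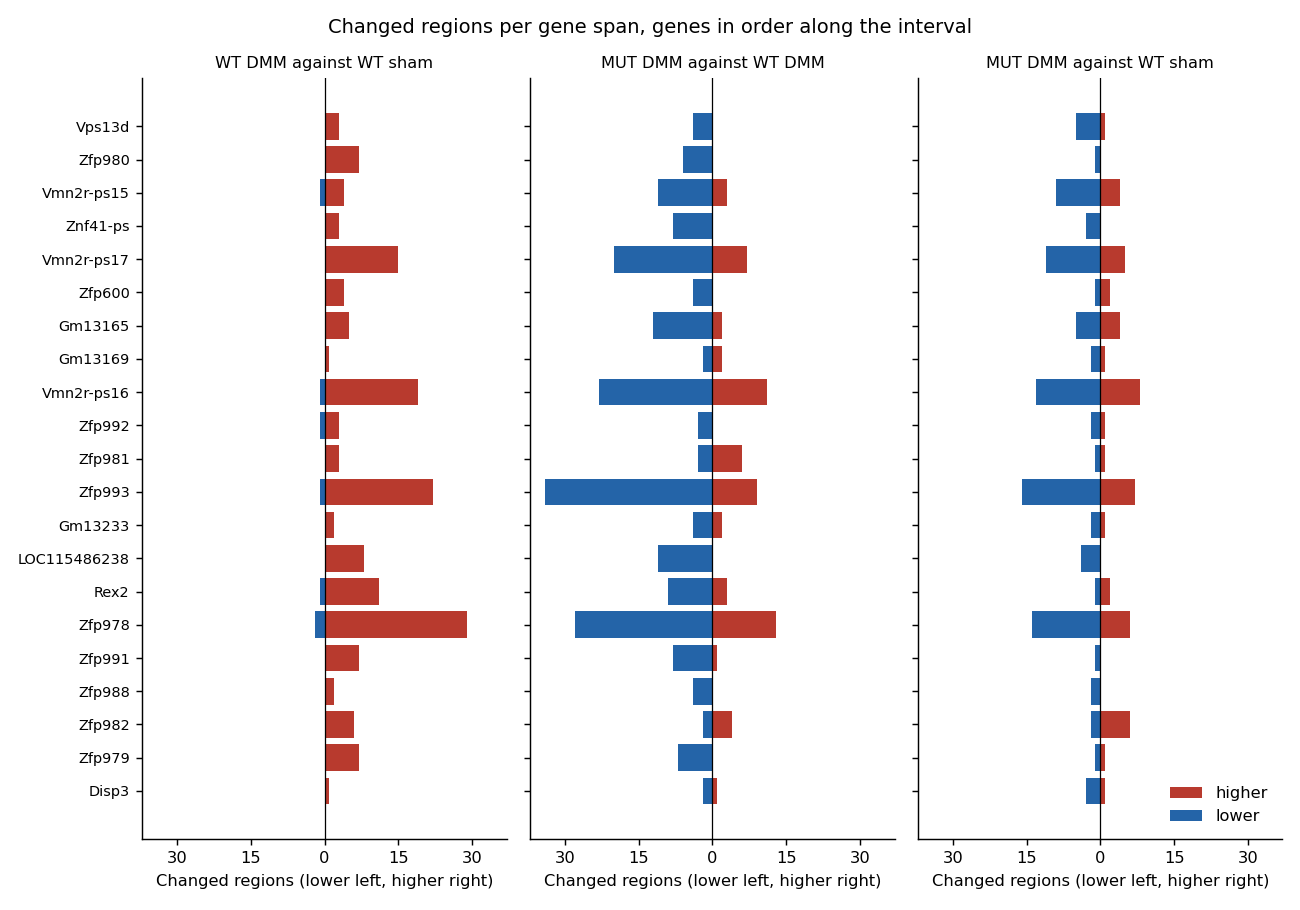
Number of changed regions in the span of each gene with at least 4 changed regions in a table, genes from the start of the interval (top) to its end, with higher regions to the right and lower ones to the left of 0. Zfp978 and Zfp993 have the longest bars among the zinc finger genes in each panel, and the bars point mostly right in WT DMM against WT sham and mostly left in both MUT DMM comparisons.

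By place along the interval, the counts were as follows. From the first to the last zinc finger gene there were 167 higher and 7 lower regions in WT DMM against WT sham, 70 higher and 179 lower in MUT DMM against WT DMM, and 46 higher and 91 lower in MUT DMM against WT sham. In the flank beyond the last zinc finger gene, MUT DMM against WT DMM had 16 higher and 10 lower regions, the only one of the 3 stretches with more higher than lower regions in that comparison. The flank before the first zinc finger gene had 1 higher and 16 lower in the same comparison. Regions within zinc finger genes were 26.6% higher (38 of 143) in MUT DMM against WT DMM and 39.1% higher (27 of 69) in MUT DMM against WT sham, and those outside any gene 28.4% and 27.6% in these 2 comparisons. The density of listed regions was 54.9 per Mb in WT DMM against WT sham, 84.6 in MUT DMM against WT DMM and 54.9 in MUT DMM against WT sham. Of windows of the same length tiled over the genome, 4 of 812, 2 of 818 and 20 of 819 held as many regions or more in these tables. The median window held 55, 76 and 81 regions. Because the interval was chosen for its many regions, these ranks only describe it and do not measure how rare it is.

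Listed regions reached the promoters of few genes. For MUT DMM against WT DMM, a region over the Mfn2 promoter (chr4:147904541-147904740) had 30.9 and 28.4 normalized counts in MUT DMM, against 0, 24.1 and 20.7 in WT DMM. One at the Clcn6 promoter, a gene for an endosomal chloride and proton exchanger, had 39.3 and 49.8 in MUT DMM, against 38.2, 29.3 and 15.8 in WT DMM. Over the Zfp982 promoter printed above, chr4:147442981-147443260 had 101 and 189 in MUT DMM, against 78.0, 94.9 and 82.4 in WT sham (log2 ratio 0.76), and the groups were apart by a narrow gap. At the start shared by Miip and Fv1, chr4:147868561-147868880 had 64.1 and 170 in MUT DMM, against 55.7, 68.3 and 57.1 in WT sham, with overlap. The Zfp979 promoter met the end of a region with 8.1 and 9.45 in MUT DMM, against 3.18, 1.16 and 2.22 in WT sham, which rests on 27 reads in all. The Plod1 promoter, of a collagen lysyl hydroxylase, met a region with 0 reads in both MUT DMM libraries, against 9, 10 and 12 reads in WT sham.

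Regions with equal counts at several positions were looked for among regions with at least 30 reads over all libraries, as those whose reads were equal in every library. They were less frequent in the interval than in each table. In WT DMM against WT sham 21 of 188 regions (11.2%) had such a partner somewhere in the genome, against 39.4% of the table. The shares were 34 of 262 (13%), against 17.5%, in MUT DMM against WT DMM, and in MUT DMM against WT sham 37 of 181 (20.4%), against 27.1%. The interval's changed regions hold more reads than most, with medians of 109 against 47 in the whole table for WT DMM against WT sham, 108.5 against 74 for MUT DMM against WT DMM, and 127 against 72 for MUT DMM against WT sham. With at least 100 reads, 0 of 107, 2 of 161 and 0 of 105 had a partner in the 3 comparisons in that order. The table's shares at that minimum were 0.0532%, 2.92% and 0.583%. With so few regions, the counts of 0 are near the table's share.

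The partners were seldom in the interval itself. A single set had 2 positions in it, chr4:146227581-146227840 and a region 1413 kb away that starts at 147640801. Their reads were 8 and 0 in MUT DMM, against 1, 8 and 14 in WT DMM, and 6 regions on 4 chromosomes shared these values. The sets differed in size between the tables. For MUT DMM against WT sham, the values of chr4:145294621-145294880 (0 and 0 reads in MUT DMM, against 10, 5 and 15 in WT sham) stood at 50 positions on 17 chromosomes, those of chr4:145127821-145128080 (0 and 0, against 11, 5 and 16) at 38, and those of chr4:148045921-148046140 (0 and 0, against 7, 3 and 20) at 34. For MUT DMM against WT DMM the largest was that of chr4:145259001-145259280 (6 and 1 reads in MUT DMM, against 0, 8 and 15 in WT DMM), with 21 positions on 15 chromosomes, followed by chr4:145098101-145098480 with 10 and chr4:145682241-145682460 with 9. In WT DMM against WT sham it was chr4:146202701-146202900 (0, 4 and 12 reads in WT DMM, against 6, 4 and 8 in WT sham), with 6 positions, and the next had 5. These sets had few reads in each library, and whether they exceed agreement by chance at such counts was not tested.

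**Figure D4:**
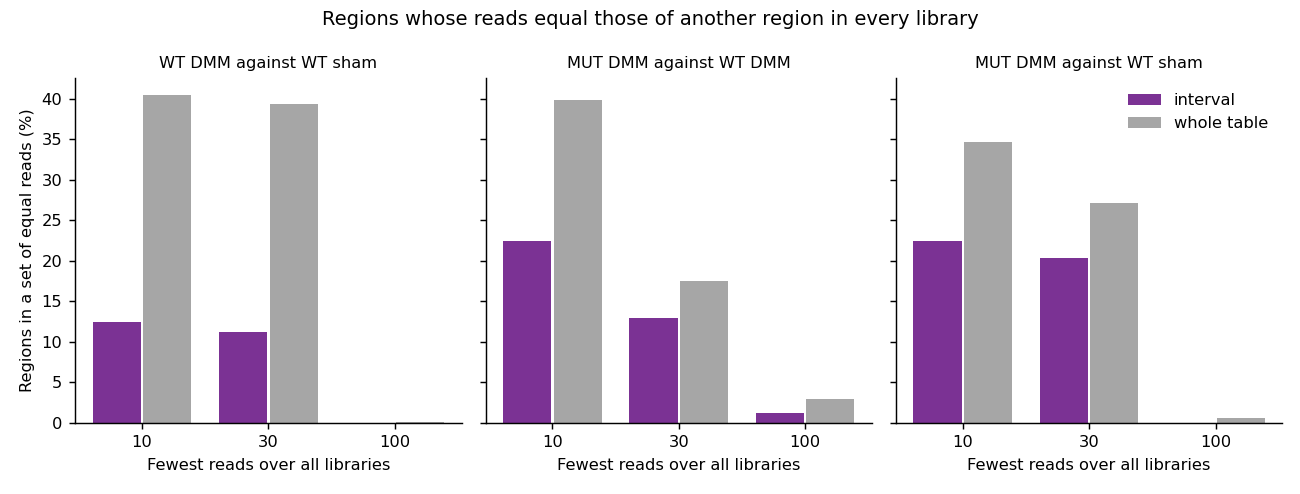
Percentage of regions whose reads equal those of another, not overlapping region in every library, for regions with at least 10, 30 or 100 reads over all libraries, in the interval (purple) and the whole table (grey). The interval's share is below the table's in every pair of bars, and with at least 100 reads it is 0 in both comparisons with WT sham. The table's shares there are also near 0, with 0.0532% for WT DMM and 0.583% for MUT DMM.

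Nearly equal counts also occurred inside the interval, some of them at regions with many reads. With every library within 5% or 1 read, 6 pairs of regions in the interval agreed in WT DMM against WT sham, 24 in MUT DMM against WT DMM and 7 in MUT DMM against WT sham. With at least 100 reads there were 0, 5 and 1 pairs. Such pairs were not counted in other stretches of the genome or over the table. Whether these numbers exceed agreement by chance at low counts was therefore not tested. The 2 regions of each of the 24 pairs had the same direction, which their equal counts fix. In the deepest pair of MUT DMM against WT DMM, the Zfp981 and Zfp978 regions described above lay 715.7 kb apart. The first had 392 and 29 reads in MUT DMM, against 4, 87 and 69 in WT DMM, and the second had 386 and 29 in MUT DMM, against 4, 91 and 67 in WT DMM. Each library thus gave about as many reads at one as at the other, and both are among the 3 higher regions with the smallest adjusted p.

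A second pair, chr4:146135821-146136100 and chr4:147000821-147001020, had 165 and 14 reads against 171 and 14 in the MUT DMM libraries, and 1, 27 and 42 against 1, 27 and 40 in the WT DMM libraries. The 2 lie 865.0 kb apart. When MUT DMM was set against WT sham, the same places were the 2 higher regions with the smallest adjusted p. There chr4:146135921-146136300 had 230 and 21 reads in MUT DMM, against 196, 67 and 369 in WT sham. Its counterpart in Rex2, chr4:147000841-147001220, had 228 and 21 in MUT DMM, against 197, 67 and 371 in WT sham, and an adjusted p of 5.84e-05 in the authors' deposited table. The Zfp600 and Rex2 promoters that differ by 2 edits are also 865.0 kb apart, in the same order on the chromosome. The sequences of the paired regions were not compared with each other or with these promoters. A set of 3 lower regions in MUT DMM against WT DMM, starting at 147008761, 147142141 and 147348081, had 31, 32 and 31 reads in the deeper MUT DMM library, and 78, 78 and 77 in the third-listed WT DMM library. How reads that fit several places were assigned is not stated in the labels or file headers, and its part in these equal counts was not tested.

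**Figure D5:**
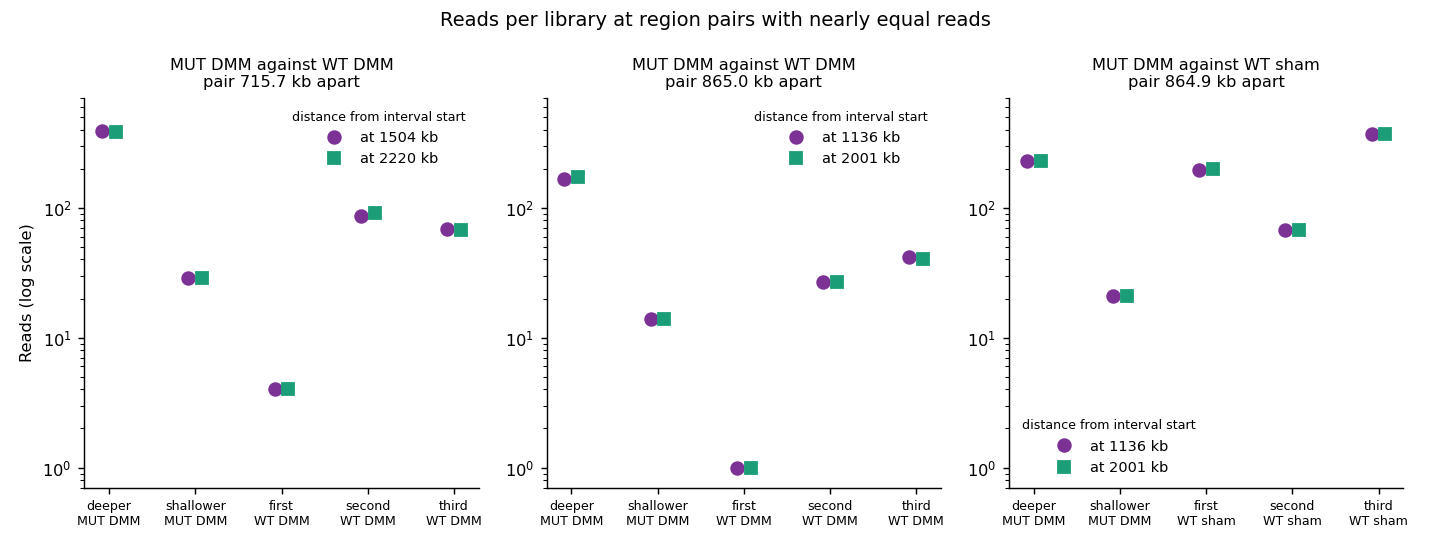
Reads per library (log scale) at the 2 regions of the 2 deepest nearly equal pairs in MUT DMM against WT DMM and of the deepest pair in MUT DMM against WT sham, named by their distance from the start of the interval. In each library the circle and the square lie almost at the same height, from 1 read in the first-listed WT DMM library to 392 against 386 in the deeper MUT DMM library.

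Some places were listed under 2 entries of a table. There were 10 overlapping pairs of listed regions in MUT DMM against WT DMM, 8 of them of opposite directions, and 1 overlapping pair in WT DMM against WT sham, also of opposite directions. At the Gm13165 promoter, chr4:146240081-146240300 was lower, with 6.79 and 10.7 normalized counts in MUT DMM, against 0, 18.1 and 25.6 in WT DMM. It overlaps chr4:146240141-146240500, which was higher, with 97.6 and 96.0 in MUT DMM and 0, 108 and 117 in WT DMM. In the second region both MUT DMM levels were below both well-covered WT DMM levels, and its direction came from the WT DMM library at 0.

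Between tables, 77 of the 192 members in WT DMM against WT sham (40.1%) shared at least 100 bases with 77 of the 296 in MUT DMM against WT DMM (26%). There were 20 sets of 3 regions, 1 from each table, that shared at least 100 bases. The 5 with the most reads are given by their values. At chr4:147221761-147221960 in Zfp978, levels were 0, 92.05 and 72.9 in WT DMM, against 99.3, 98.0 and 90.2 in WT sham. In MUT DMM against WT DMM the region from the same start had 76.7 and 78.2 in MUT DMM, against 0, 68.5 and 58.4 in WT DMM. In MUT DMM against WT sham it had 191 and 189 in MUT DMM, against 164, 159 and 146 in WT sham, and there the groups were apart.

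The region around chr4:145781901-145782820, whose WT values are given above, was split in 2 in the other tables. Its first portion had 40.2 and 49.8 in MUT DMM, against 28.7, 47.4 and 113 in WT DMM, and 30.2 and 0 in MUT DMM, against 49.9, 57.9 and 50.5 in WT sham. Its last portion had 13.1 and 7.11 in MUT DMM, against 0, 39.1 and 87.1 in WT DMM, and 41.2 and 18.9 in MUT DMM, against 82.7, 86.8 and 69.4 in WT sham. In LOC115486238, chr4:146611661-146612300 had 0, 84.05 and 175 in WT DMM, against 53.2, 61.5 and 48.0 in WT sham. The matching regions had 13.8 and 7.11 in MUT DMM, against 0, 34.6 and 91.9 in WT DMM, and 43.4 and 18.9 in MUT DMM, against 78.0, 84.5 and 71.3 in WT sham. Outside genes, chr4:146280561-146280920 had 0, 58.7 and 146 in WT DMM, against 31.7, 34.3 and 42.2 in WT sham, with 21.5 and 17.8 in MUT DMM, against 0, 48.1 and 100.45 in WT DMM, in the next table. Its match in MUT DMM against WT sham had 30.9 and 47.2 in MUT DMM, against 48.3, 55.6 and 66.0 in WT sham. In these last sets the second-listed and third-listed WT DMM libraries were above every WT sham library, and both MUT DMM libraries were below every WT sham library.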

How the data were processed

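The interval, its members and its gene lists were chosen with earlier results of these data known. By the submitters' processing notes, tools included HISAT2 2.1.0, Trim Galore 0.5.0, bcl2fastq 2.20.0, bedtools and SAMtools, and the build was mm10. No source used here names the region caller. The deposited tables hold, per the file headers, a normalized count for each library (3 joined per group), the group means as a signal, log2 fold changes, p-values and adjusted p-values of the region, and the fold and p of its best window. Deposited log2 fold changes held spreadsheet errors and were recomputed as log2 ratios of the group means with a pseudocount of 1. Reads were recovered as whole multiples of each library's step, within 0.02 normalized counts, in 100% of the regions. A library is named by where it stands in the cell, since the columns carry no replicate number, and no batch is given. No count model was run, because the values are joined, normalized and preselected.

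Changed means the authors' adjusted p under 0.05. limma 3.58.1 (R 4.3.3) was fitted on log2(normalized count + 1) over all listed regions of a table with Benjamini-Hochberg adjustment, after a check on simulated data. Because the regions were preselected for a difference between the same libraries, its p-values and calls are descriptive and not error rates. Promoters were compared with edlib 1.3.9. Named were, per table, the 3 higher and 3 lower regions of smallest adjusted p, the 3 with most reads, the 3 largest sets of equal reads, each gene with at least 4 changed regions, and the 5 sets with most reads found in all 3 tables. Other regions and genes were chosen after their values were seen. The design text calls the samples of a group biological replicates. PCR copies (15 cycles) were not told apart, so reads are not independent molecules.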

Additional observations from a re-analysis of the deposited data

How the results depend on the processing

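Over the alternatives, 130 of the 164 recomputed summary values kept their direction and stayed within 1.5 times the main count or within the spread between libraries. For the median log2 ratio in WT DMM against WT sham, that spread includes the nearly empty library. It is therefore wide, and large shifts of that median count as kept, so the tally does not measure how stable it is. The largest shifts came from single WT DMM libraries. In WT DMM against WT sham, leaving out 1 library at a time gave 100 to 184 higher and 7 to 91 lower regions, 4 to 163 regions without overlap (7 without the second-listed WT DMM library, 5 without the third-listed one and 5 without the second-listed or the third-listed WT sham library), 0 to 137 limma calls and median log2 ratios of 0.05 to 1.60. In MUT DMM against WT DMM it gave 80 to 143 higher and 149 to 212 lower regions, 96 to 233 without overlap and median log2 ratios of -1.35 to -0.01. In MUT DMM against WT sham it gave median log2 ratios of -1.70 to -1.26 and 39 to 116 limma calls (47 and 45 without the first-listed and the third-listed WT sham library), and 159 to 178 regions without overlap. Of the named regions, 2 changed sign without the third-listed WT DMM library, chr4:145493741-145494120 with -0.09 to 1.80 and chr4:145781901-145782820 with -0.29 to 0.96 over the libraries left out. Among the other settings, an adjusted p under 0.001 left 82 regions (82 higher, 0 lower) in WT DMM against WT sham and 97 (25 higher, 72 lower) in MUT DMM against WT sham. In MUT DMM against WT DMM it left 55 higher regions and lower ones as well, among them the leading lower regions named above. A higher group mean of at least 10 normalized counts left 129 lower regions, along with higher ones, in MUT DMM against WT DMM and 0 limma calls in MUT DMM against WT sham. For the counts of changed regions at these 2 settings, the table's shares were not computed. At an adjusted p under 0.05, 93.2% of the whole table was already higher in WT DMM against WT sham. Recovered reads scaled to each library's total over the listed regions (RPM) gave 150 higher and 41 lower regions and a median log2 ratio of 0.25 in WT DMM against WT sham, and medians of -0.66 in MUT DMM against WT DMM and -1.46 in MUT DMM against WT sham. A pseudocount of 4 gave a median log2 ratio of -1.18 in MUT DMM against WT sham. Equal reads were found in 66 regions with at least 10 reads in MUT DMM against WT DMM (22.4%, against 39.9% of the table). With at least 100 reads they were found in 0, 2 and 0 of the 3 tables' interval regions. The tables' shares there were 0.0532%, 2.92% and 0.583%. With every library within 5% or 1 read of a region anywhere in the genome, there were 87 in WT DMM against WT sham, 185 in MUT DMM against WT DMM and 103 in MUT DMM against WT sham. The table's shares by that rule were not computed. The cause of these shifts was not tested. The alternatives that leave out all regions in sets of equal reads, and that count the repeated MUT DMM library once, moved no count by over 1.5 times. They and the counts from RPM were chosen after seeing the data. No paired analysis was possible because the columns carry no replicate numbers, so the planned fits with that block were not run. Where a fit left a group with 1 library, that library was assumed to vary like the others. Depth limits the nearly empty WT DMM and the shallower MUT DMM library most.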
